A study of Mus musculus with 24 samples.

Results

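Acyl-CoA synthetases were followed across the livers of 24 male C57Bl/6J mice, through 10 genes: Acsl1, Acsl3, Acsl4, Acsl5 and Acsl6 of the long-chain family, Acsm1, Acsm3 and Acsm5 of the medium-chain family, and Acsf2 and Acsf3. They were chosen by name, as every gene probe that the array assigns to 1 of these symbols, and make up 10 of the 37074 gene names on the array and 27 of its 56605 probes. Of the 10 genes, 9 had a probe above the filter on dim signal, which kept 23 of the 27 probes. Acsl6 did not pass. Genotype crossed with treatment gave 4 groups of 6 mice. LWT mice have PPARα, a nuclear receptor for fatty acids, in their hepatocytes and LKO mice do not, as far as the series title can be matched to these codes. The labels do not spell out LWT and LKO, and the deletion's driver, the part of the gene removed and the age of the mice are not given in the sources used here. Within each genotype, 1 group received CL316243, which activates the beta3 adrenergic receptor, at a dose of 3 mg/kg (Beta3 in the labels), and 1 group received only the 0.5% carboxymethyl cellulose in which it was given. All 4 groups were gavaged at Zeitgeber time 10 h, counted from lights on in a cycle of 12 h of light and 12 h of dark, had free access to standard chow and water, and were killed at 16 h. Whole liver RNA was hybridised, 1 mouse per single-colour array.

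A fatty acid enters metabolism only after it has been joined to coenzyme A, and acyl-CoA synthetases carry out this step at the cost of ATP. The Acsl enzymes act on long chains at the endoplasmic reticulum, mitochondria, peroxisomes and lipid droplets, and their products go to beta-oxidation, to triglyceride and phospholipid synthesis or back to free acids through thioesterases. The Acsm enzymes and Acsf2 activate medium chains in mitochondria, and Acsf3 activates malonate there. In liver, Acsl1 is the main long-chain synthetase and a known target gene of PPARα. The beta3 adrenergic receptor is best known from adipocytes, where its activation releases fatty acids that reach the liver.

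Probes are shown first for Acsl1, whose response in LWT differed most in size between probes, and for Acsl5 and Acsf2, where a call for CL316243 in LKO depended on the probe. Each probe has 60 bases, of which the first 30 are given, 5′ to 3′, and probes of a gene are numbered from the brightest.
Acsl1 probe 1: gcctaacttcatactcgtattcttaattgc
Acsl1 probe 2: ggggaacccataaaagtgctaagttattta
Acsl1 probe 3: tgctgcaaatagtggaggttatgtttgttc
Acsl5 probe 1: gcagccaagatcggggtaaagggatcattt
Acsl5 probe 2: tgacctcaatggctgcctccctggtcttga
Acsf2 probe 1: agatctgagtttgattcctagcacccacat
Acsf2 probe 2: aattcaaactccgagagcagatggaacagc
Acsf2 probe 3: ttgatggatgaacagggcttctgcaagatc
The array's annotation places them on mouse build mm9. Acsl1 probe 1 lies at chr8:47621232-47621291 (plus strand) and probe 2 at chr8:47620082-47620141, both assigned to NM_007981, while probe 3, at chr8:47601866-47601925, is assigned to another transcript, ENSMUST00000128746. Acsl5 probe 1 spans chr19:55368743-55369331, an interval wider than the probe, on NM_027976, and probe 2 lies further along at chr19:55372112-55372171 on a cDNA clone, AK034942. The 3 Acsf2 probes are all assigned to NM_153807 on the minus strand, probe 1 at chr11:94418548-94418607, probe 2 at chr11:94419605-94419664 and probe 3 at chr11:94420849-94420908. Acsf2 probe 1 shared an exact run of 16 bases with a probe of 1 other gene and with promoter windows of 2 other genes, Acsl1 probe 3 with a probe of 1 other gene, and Acsl5 probes 1 and 2 each with a promoter window of 1 other gene. Acsl1 probes 1 and 2 and Acsf2 probes 2 and 3 shared such a run with none. No genome of this build was used, so whether a probe lies in coding sequence or in an untranslated region was not determined here.

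The promoters of Acsl1, Acsl5 and Acsm5 are shown because these genes had the largest called responses to CL316243 in either genotype. Each line holds the 250 bases before a RefSeq transcription start in build GRCm38.p6, on the plus strand, and capitals mark matches to the GC box GGGCGG or to CCAAT on either strand.
Acsl1, chr8:46470787-46471036: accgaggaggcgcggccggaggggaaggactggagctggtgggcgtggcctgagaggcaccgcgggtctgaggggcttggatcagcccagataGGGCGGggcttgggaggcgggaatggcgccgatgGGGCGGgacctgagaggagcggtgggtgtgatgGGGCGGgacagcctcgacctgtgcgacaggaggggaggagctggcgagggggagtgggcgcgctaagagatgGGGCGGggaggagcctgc
Acsl1, chr8:46490716-46490965: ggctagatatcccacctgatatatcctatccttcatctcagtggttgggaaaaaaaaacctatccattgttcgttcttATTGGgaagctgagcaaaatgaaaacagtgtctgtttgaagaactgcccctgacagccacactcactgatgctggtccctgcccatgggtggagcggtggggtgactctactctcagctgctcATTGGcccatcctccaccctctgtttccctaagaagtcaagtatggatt
Acsl5, chr19:55253119-55253368: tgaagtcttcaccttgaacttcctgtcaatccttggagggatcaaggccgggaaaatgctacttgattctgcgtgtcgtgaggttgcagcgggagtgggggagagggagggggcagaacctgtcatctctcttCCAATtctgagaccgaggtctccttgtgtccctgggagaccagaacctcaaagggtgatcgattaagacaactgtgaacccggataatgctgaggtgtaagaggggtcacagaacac
Acsm5, chr7:119526015-119526264: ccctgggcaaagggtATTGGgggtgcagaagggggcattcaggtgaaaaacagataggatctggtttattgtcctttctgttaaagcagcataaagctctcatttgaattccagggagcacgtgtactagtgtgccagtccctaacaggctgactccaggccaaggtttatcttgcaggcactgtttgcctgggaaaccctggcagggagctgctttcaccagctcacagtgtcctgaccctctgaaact
The starts of Acsl1 differed in composition: the first window was 72% G and C with 4 GC boxes, and the second 48.4% with no GC box and 2 CCAAT matches, against a median of 52.4% over 32851 windows. The 10 genes had 13 windows. The direct repeat of the nuclear receptor half-site spaced by 1 base, AGGTCANAGGTCA, was matched in 0 of the 13 and in 0.0335% of all windows, and the looser AGGNCANAGGNCA in 0 of 13 and in 0.338%. The half-site AGGTCA alone, which lies within the first of these, was matched in 2 of 13 windows (Acsm1 and Acsl6) against 14% of all windows, the GC box in 7 of 13 against 32.7%, CCAAT in 9 of 13 against 33.8% and TATAAA in 0 of 13 against 12.4%, each searched on both strands. These counts describe letters in short windows and say nothing of receptor binding.

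Values below are log2 levels, the log2 of the processed intensity less the array's own 75th percentile, which was 397.4 to 577.7 intensity units over the 24 arrays. Between 26985 and 34202 probes per array lay well above background, and 0 gene spots were saturated. The arrays filled 3 slides with 2 mice of every group on each. Ppara, the gene behind the genotypes, had a log2 level of 5.45, 5.66 and 5.93 (lowest, median and highest of 6) in LWT vehicle and of 4.81, 5.01 and 5.18 in LKO vehicle, so that the genotypes did not overlap. Its difference under vehicle was -0.68 (SE 0.20) with an adjusted p of 0.158, and under CL316243 it was -1.91 (adjusted p = 3.6e-07). In limma's moderated test CL316243 changed Ppara by 0.55 in LWT (adjusted p = 0.0377) and by -0.69 in LKO (adjusted p = 0.01). The interaction was -1.23 (adjusted p = 0.012). A dimmer Ppara probe had 4.18, 4.41 and 4.69 in LWT vehicle and 3.31, 3.46 and 3.73 in LKO vehicle, also without overlap. Since the removed part of Ppara is not given, its probes may lie outside it. Of the hepatocyte markers, 5 of 5 (Alb, Ttr, Apoa1, Tat and Cps1) were well above background on 24 of 24 arrays, and 0 of 5 were called with CL316243 in LWT and 1 of 5 in LKO, where Apoa1 fell (-0.25, adjusted p = 0.0307).

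Among the 9 genes tested, CL316243 raised Acsl1, Acsl5 and Acsf2 and lowered Acsm1 and Acsm5 in LWT livers. In LKO livers it lowered Acsl1, Acsm1, Acsm3 and Acsm5, and raised Acsf2 at its brightest probe only. The other Acsf2 probes differed by -0.18 and -0.28 there and were not called. A gene was called at an adjusted p under 0.05 in limma's moderated test, with Benjamini-Hochberg adjustment over 21331 genes. The 5 of 9 called in LWT stood against 38.3% of all genes tested, and the 5 of 9 in LKO against 40.3%, so that the treatment called the synthetases at rates not far from those of the array as a whole. The effect of CL316243 differed between genotypes for 3 of 9 (Acsl1, Acsl5 and Acsm3), all lower in LKO, where 5.41% of all genes were called and 3.24% were lower in LKO. Under vehicle 0 of 9 differed between genotypes (1.18% of all genes called). Under CL316243, 5 of 9 differed (Acsl1, Acsl5, Acsm3, Acsf2 and Acsf3), each lower in LKO, where 15.9% of all genes were called and 8.17% were lower. Groups did not overlap with CL316243 for 3 of 9 in LWT (20.4% of all genes) and for 4 of 9 in LKO (20.8%). The median log2 difference over the 9 genes was -0.0070 for CL316243 in LWT, where it was 0.0092 over all genes tested. It was -0.36 in LKO (0.027 over all genes), -0.31 for the interaction (0.030), -0.11 for genotype under vehicle (-0.016) and -0.45 for genotype under CL316243 (0.013).

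**Figure D1:**
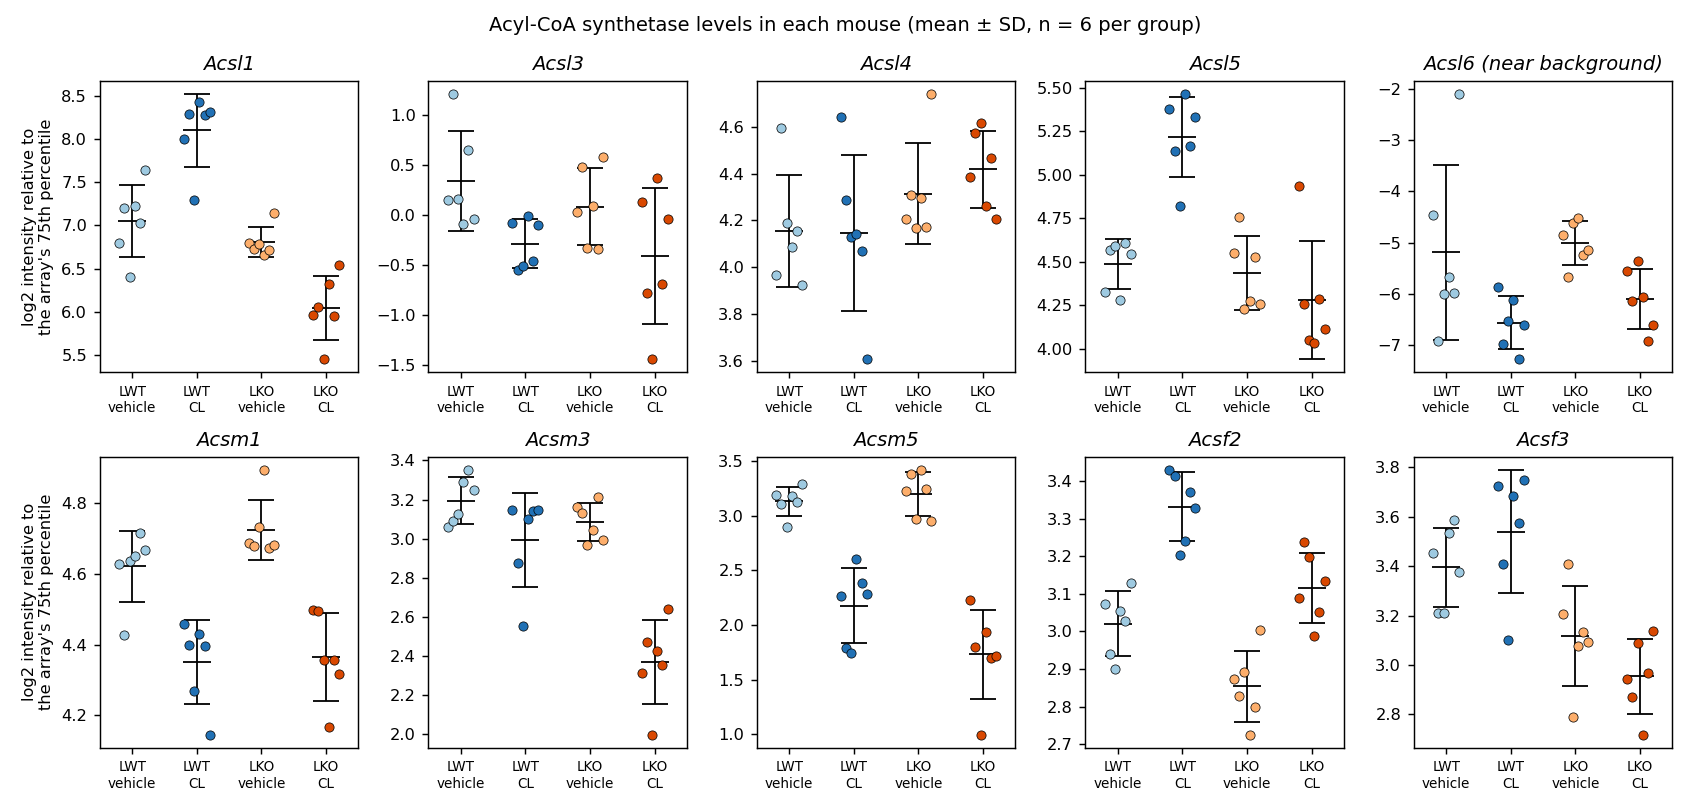
Log2 level of each acyl-CoA synthetase (vertical axis, relative to the array's 75th percentile, own scale for each gene) in each of 24 mice by group, with bars for mean and SD of 6 mice. Acsl1 and Acsl5 stand highest in LWT mice given CL316243, Acsm5 stands lower with CL316243 in both genotypes, and Acsl4 overlaps across all 4 groups.

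Acsl1 moved in opposite directions in the 2 genotypes. Its log2 level, at probe 1, was 6.41, 7.12 and 7.64 (lowest, median and highest of 6) in LWT vehicle and 7.30, 8.29 and 8.43 in LWT CL316243. The LKO vehicle mice lay at 6.66, 6.75 and 7.15, and the LKO CL316243 mice at 5.45, 6.01 and 6.54. The LWT groups overlapped through 1 low CL316243 mouse and 1 high vehicle mouse, whereas every LKO mouse given CL316243 lay below every LKO vehicle mouse. CL316243 raised Acsl1 2.07-fold in LWT, by 1.05 (SE 0.20, adjusted p = 0.000263). In LKO it lowered Acsl1 1.69-fold, by -0.76 (SE 0.20, adjusted p = 0.00453). The difference between these effects was -1.81 (SE 0.28, adjusted p = 0.00029), and 147 of the 21331 genes had one at least as far down. Within the 3 slides the LWT effect ran from 0.79 to 1.35, the LKO effect from -1.21 to -0.51 and the interaction from -2.56 to -1.30, so that each kept its direction on every slide.

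All 3 Acsl1 probes gave this pattern, with a larger span at the dimmer ones. At probe 2 CL316243 changed the log2 level by 1.61 in LWT and by -0.82 in LKO (adjusted p = 2.96e-05 and 0.0139 over all 56605 probes). At probe 3 the changes were 2.48 and -1.45 (adjusted p = 0.000162 and 0.0157), with 5 of 6 LKO CL316243 arrays well above background, and this is the Acsl1 probe that shares a run with a probe of another gene. The mean of the 3 probes changed by 1.72 in LWT and by -1.01 in LKO, both called. Over all probes of the array, 18.2% were called in LWT and 20% in LKO. The size of the Acsl1 response therefore differed between probes by more than 1 log2 unit in LWT, and the direction did not.

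Acsl5, a long-chain synthetase of mitochondria and endoplasmic reticulum that is abundant in liver and intestine, rose with CL316243 in LWT. Its log2 level at probe 1 was 4.28, 4.55 and 4.60 in LWT vehicle and 4.82, 5.25 and 5.46 in LWT CL316243, so that these groups did not overlap. It was 4.23, 4.40 and 4.76 in LKO vehicle and 4.04, 4.19 and 4.94 in LKO CL316243, where 1 mouse (replicate 1) stood above all LKO vehicle mice and the other 5 were at 4.28 or below. The LWT increase was 0.73 (SE 0.14, adjusted p = 0.00021), or 1.66-fold. The LKO difference was -0.15 (95% interval -0.44 to 0.13, adjusted p = 0.396), and without LKO CL316243 replicate 1 it was -0.28 and called (adjusted p = 0.0482). The effects differed by -0.88 (SE 0.19, adjusted p = 0.00736), with values from -1.07 to -0.66 within slides.

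Acsl5 probe 2 did not show this difference. Its log2 level was -2.06, -1.72 and -1.62 in LWT vehicle and -1.71, -1.36 and -1.19 in LWT CL316243. In LKO it was -2.27, -1.9998 and -1.69 under vehicle and -1.59, -1.21 and -0.86 under CL316243, without overlap. CL316243 changed it by 0.38 in LWT (adjusted p = 0.0664 over all probes) and by 0.75 in LKO (adjusted p = 0.000407), with an interaction of 0.38 (adjusted p = 0.52). Averaging both probes gave a call in LKO in the other direction, 0.30 (adjusted p = 0.00397), and an interaction of -0.25 that was not called (adjusted p = 0.208). The genotype difference of Acsl5 thus rested on the probe of NM_027976, and the remaining probe, on AK054476 and the opposite strand, was well above background on 0 of 24 arrays.

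**Figure D2:**
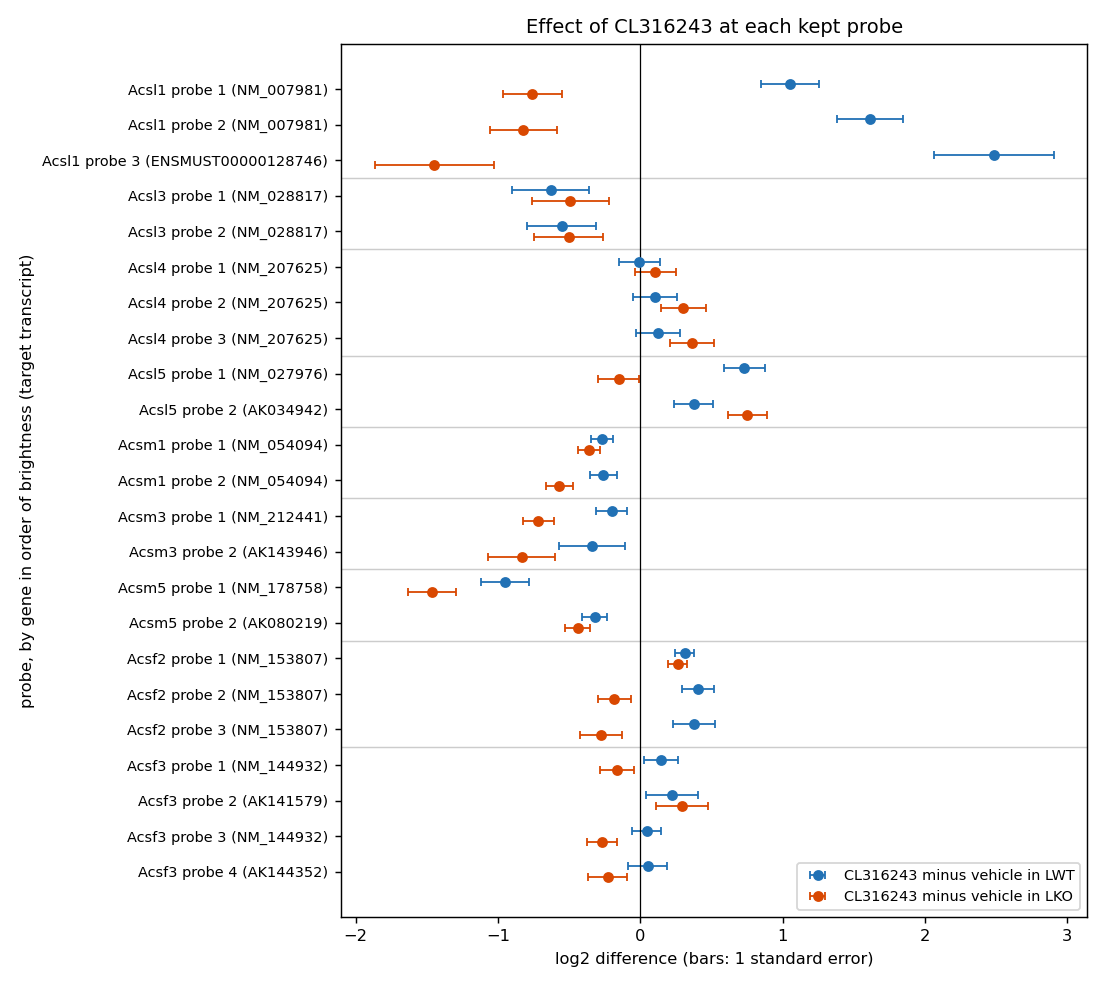
Log2 difference between CL316243 and vehicle (horizontal axis) at each of the 23 kept probes of the 9 genes tested, with LWT in blue, LKO in orange and bars of 1 standard error. The 3 Acsl1 probes share their directions, whereas Acsl5 probe 2, Acsf2 probes 2 and 3 and Acsf3 probe 2 take another direction in LKO than the brightest probe of their gene.

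The other long-chain synthetases were not called in any of the 5 comparisons. Acsl3, found on lipid droplets and endoplasmic reticulum, had a log2 level of -0.09, 0.16 and 1.21 in LWT vehicle and of -0.55, -0.28 and -0.01 in LWT CL316243. Its LKO values were -0.34, 0.06 and 0.58 under vehicle and -1.44, -0.37 and 0.37 under CL316243. Its differences with CL316243 were -0.63 in LWT (95% interval -1.18 to -0.08, adjusted p = 0.0669) and -0.49 in LKO (-1.04 to 0.06, adjusted p = 0.147). The LWT difference was called when only the LWT groups were fitted (adjusted p = 0.033) and without LKO CL316243 replicate 3 (adjusted p = 0.034), with the value itself unchanged at -0.63.

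Acsl4, which prefers arachidonic acid, lay at 3.93, 4.12 and 4.60 in LWT vehicle and at 3.61, 4.14 and 4.64 in LWT CL316243. In LKO it lay at 4.17, 4.25 and 4.74 under vehicle and at 4.21, 4.43 and 4.62 under CL316243. All 4 groups overlapped, and the differences with CL316243 were -0.0070 in LWT (95% interval -0.30 to 0.28) and 0.10 in LKO (-0.19 to 0.39). Acsl6, best known from brain, had 3 probes, and the brightest was well above background on 4 of 24 arrays, 1 of LWT vehicle and 3 of LKO vehicle. It was above background in 0 of 12 mice given CL316243, and no fold is given for it because most of its values carry no measured level.

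Of the Acsm genes, Acsm1 and Acsm5 were called lower with CL316243 in both genotypes and Acsm3 in LKO only. Among all genes tested, 19.4% were called lower in LWT and 19.4% in LKO. Acsm5 had the largest decrease among the 9 genes in both genotypes. Its log2 level was 2.90, 3.15 and 3.29 in LWT vehicle and 1.74, 2.27 and 2.60 in LWT CL316243. LKO mice had 2.95, 3.23 and 3.42 under vehicle and 0.997, 1.76 and 2.23 under CL316243. Treated and vehicle mice did not overlap in either genotype. The decrease was -0.95 in LWT (SE 0.16, adjusted p = 8.5e-05), or 1.94-fold, and -1.47 in LKO (SE 0.16, adjusted p = 7.39e-07), or 2.76-fold. The difference of -0.51 between these effects was not called (95% interval -0.99 to -0.03, adjusted p = 0.233), and within slides it ran from -0.90 to 0.045. Acsm5 probe 2 gave smaller decreases in the same direction, -0.32 in LWT and -0.44 in LKO (adjusted p = 0.0112 and 0.000782 over all probes), and the mean of both probes fell by 0.95 in LKO.

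Acsm1, a mitochondrial synthetase for butyrate and other medium-chain acids, fell slightly in both genotypes. Its log2 level was 4.43, 4.64 and 4.71 in LWT vehicle and 4.15, 4.40 and 4.46 in LWT CL316243, overlapping only through the lowest vehicle mouse, replicate 2. The LKO mice had 4.67, 4.68 and 4.89 under vehicle and 4.17, 4.36 and 4.50 under CL316243, without overlap. The decreases were -0.27 (SE 0.07, adjusted p = 0.00324) and -0.36 (SE 0.07, adjusted p = 0.000262), or 1.21-fold and 1.28-fold. The interaction was -0.09 (95% interval -0.29 to 0.11) and not called. At probe 2 the LWT difference of -0.26 was not called (adjusted p = 0.0666 over all probes), and the LKO decrease was -0.57 (adjusted p = 0.000169).

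Acsm3 fell with CL316243 in LKO. Its log2 level was 3.06, 3.19 and 3.35 in LWT vehicle and 2.55, 3.12 and 3.15 in LWT CL316243, where 4 of 6 treated mice lay within the vehicle range. In LKO it was 2.97, 3.09 and 3.21 under vehicle and 1.997, 2.39 and 2.64 under CL316243, without overlap. The LKO decrease was -0.72 (SE 0.10, adjusted p = 1.42e-05), or 1.65-fold, and the LWT difference was -0.20 (95% interval -0.42 to 0.01, adjusted p = 0.134). The effects differed by -0.52 (SE 0.15, adjusted p = 0.0394), from -0.68 to -0.31 within slides. Each of the 2 Acsm3 probes shares an exact run of 16 bases with a probe of 1 other gene. The interaction call was near the threshold: it was lost without any of 13 of the 24 mice, namely LWT vehicle replicates 1, 2 and 3, LWT CL316243 replicates 1, 4, 5 and 6, LKO vehicle replicates 1, 2, 4 and 5, and LKO CL316243 replicates 1 and 5, with differences of -0.53 to -0.49 and adjusted p from 0.0541 to 0.0715. It was also lost with no filter on dim probes (adjusted p = 0.0966) and with the mean of both probes (-0.51, adjusted p = 0.22). Acsm5, Acsm1 and Acsm3 lie in this order in a cluster on chromosome 7 with Acsm2 and Acsm4 among them. Acsm2 was not called for CL316243 in either genotype (0.08 in LWT and -0.10 in LKO), and Acsm4 did not pass the filter. Between genotypes the Acsm2 medians were higher in LKO. Under vehicle its log2 level was -3.69, -3.21 and -2.54 in LWT and -2.51, -2.34 and -1.94 in LKO. Under CL316243 it was -3.62, -2.97 and -2.49 in LWT and -2.78, -2.41 and -2.04 in LKO, with overlap. Acsm2 belongs to the other acyl-CoA synthetases described below. Of the 10 tested there, 1 was called between genotypes under vehicle, where 1.18% of all genes were called. That call was unstable: it was lost under 6 of 12 processing alternatives and without any of 12 of the 24 mice.

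Acsf2, a mitochondrial medium-chain synthetase, rose slightly with CL316243 in both genotypes at its brightest probe. Its log2 level was 2.90, 3.04 and 3.13 in LWT vehicle and 3.20, 3.35 and 3.43 in LWT CL316243, without overlap. LKO levels were 2.73, 2.85 and 3.00 under vehicle and 2.99, 3.11 and 3.24 under CL316243, with an overlap of 1 mouse on each side. The increases were 0.31 (SE 0.06, adjusted p = 0.000321) and 0.26 (SE 0.06, adjusted p = 0.00156), or 1.24-fold and 1.2-fold, and the interaction of -0.05 was not called (adjusted p = 0.83).

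The dimmer Acsf2 probes, from the same transcript, read LKO differently. Probe 2 lay at -2.80, -2.71 and -2.43 in LKO vehicle and at -3.08, -2.89 and -2.54 in LKO CL316243, a difference of -0.18 (adjusted p = 0.344 over all probes). Probe 3 differed by -0.28 in LKO (adjusted p = 0.236). In LWT probe 2 rose by 0.41 (adjusted p = 0.0152) and probe 3 differed by 0.38 (adjusted p = 0.0895). Their interactions were -0.59 and -0.65 (adjusted p = 0.0676 and 0.138). With the mean of the 3 probes the LKO effect of Acsf2 was -0.066 and not called (adjusted p = 0.555), and its interaction, -0.43, was called (adjusted p = 0.0288). The LKO direction of Acsf2 therefore depended on the probe, and the LWT direction did not. Probe 1 is the one that shares a run of 16 bases with a probe of another gene, and the part of that run in its reading was not tested.

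Acsf3, the mitochondrial malonyl-CoA synthetase, was not called for CL316243 in either genotype. Its log2 level was 3.21, 3.42 and 3.59 in LWT vehicle and 3.10, 3.63 and 3.75 in LWT CL316243. Among LKO mice it was 2.79, 3.11 and 3.41 under vehicle and 2.72, 2.96 and 3.14 under CL316243. The differences were 0.14 in LWT (95% interval -0.09 to 0.38) and -0.16 in LKO (-0.40 to 0.07), with an interaction of -0.31 (-0.64 to 0.02, adjusted p = 0.315). The groups overlapped within each genotype. Probe 2, on a cDNA clone, differed by 0.29 in LKO, the opposite direction, and was not called either (adjusted p = 0.336 over all probes).

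**Figure D3:**
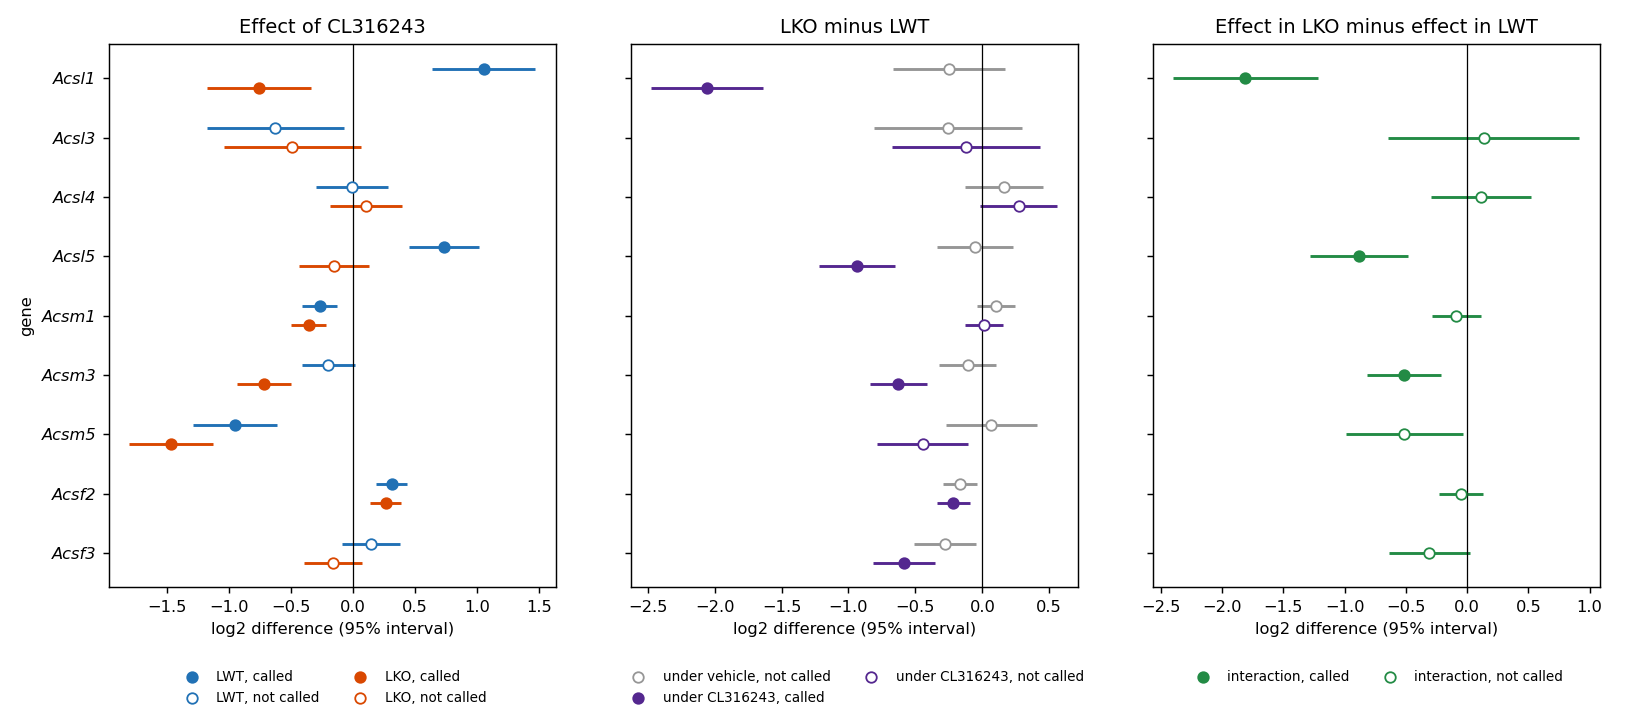
Log2 differences (horizontal axis, point with 95% interval) of the 9 acyl-CoA synthetases tested, for CL316243 against vehicle within each genotype, for LKO against LWT within each treatment, and for the difference between both CL316243 effects. Filled points passed an adjusted p under 0.05; under vehicle no genotype difference is filled, and under CL316243 the 5 filled ones all lie below 0.

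Between genotypes the synthetases differed under CL316243, and each of the 5 called was lower in LKO. Acsl1 was 4.16-fold lower, at -2.06 (SE 0.20, adjusted p = 8.64e-08), and was the only 1 of the 9 whose LWT and LKO mice did not overlap, where 6.57% of all genes had groups that did not. Acsl5 was 1.91-fold lower, at -0.94 (SE 0.14, adjusted p = 3e-05). Acsm3 was lower by -0.63 (SE 0.10, adjusted p = 0.000137), Acsf3 by -0.59 (SE 0.11, adjusted p = 0.000658) and Acsf2 by -0.22 (SE 0.06, adjusted p = 0.0166). Within slides these differences ran from -2.62 to -1.54 for Acsl1, from -1.24 to -0.45 for Acsl5, from -0.89 to -0.24 for Acsm3, from -0.81 to -0.21 for Acsf3 and from -0.38 to -0.068 for Acsf2, always below 0.

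Some of these calls moved with the fit or the probe. The Acsf2 difference was not called with no filter on dim probes (adjusted p = 0.0581) or with only the CL316243 groups fitted (adjusted p = 0.0726), although Acsf2 probes 2 and 3 gave larger ones, -0.85 and -0.93 (adjusted p = 2.74e-05 and 0.000204 over all probes, of which 6.38% were called). Acsl5 probe 2 gave 0.16 (adjusted p = 0.719), and the mean of both Acsl5 probes was -0.39 (adjusted p = 0.00113). The Acsf3 difference was smaller at its 3 dimmer probes, at -0.12, -0.19 and -0.34, with none of them called (adjusted p = 0.924, 0.398 and 0.178 over all probes). With the mean of the 4 Acsf3 probes it was -0.31 and called (adjusted p = 0.00125). Acsm5, at -0.45 (95% interval -0.79 to -0.11, adjusted p = 0.0672), was not called, and was called without LWT CL316243 replicate 2 (-0.52), without LWT CL316243 replicate 3 (-0.53) and without LKO CL316243 replicate 1 (-0.55). Acsl3, Acsl4 and Acsm1 differed by -0.12, 0.27 and 0.02 and were not called. Under vehicle the 9 genotype differences lay between -0.28 (Acsf3) and 0.16 (Acsl4), with adjusted p of 0.328 or more.

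The order of the group levels summarised these patterns. For Acsl1, Acsl5 and Acsf3 it was LWT CL316243, LWT vehicle, LKO vehicle and LKO CL316243 from high to low. For Acsl1 only the last neighbours in this order did not overlap, for Acsl5 only the first, and for Acsf3 all overlapped. The genotype step under vehicle was not called for any of them. The CL316243 step in LKO was not called for Acsl5, and neither CL316243 step was called for Acsf3. Acsl5 probe 2 had another order, with LKO CL316243 highest (mean -1.23) and LKO vehicle lowest (-1.98). For Acsm5 the vehicle groups overlapped each other, as did the CL316243 groups, with a gap between vehicle and CL316243.

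The genes whose 4 group means lay nearest to those of the 3 synthetases called in the interaction were sought among 14053 tested genes with symbols that are not clone or gene model names, by Euclidean distance after centring each gene on its own mean. Nearest to Acsl1 were Tlr12, a Toll-like receptor (distance 0.0754), Cpox, an enzyme of heme synthesis (0.261), and Lipg, endothelial lipase (0.268). Tlr12 differed with CL316243 by 0.96 in LWT and by -0.73 in LKO. Nearest to Acsl5, at its probe 1, were Hyal1, a hyaluronidase (0.0301), Tmem245 (0.0344) and Zfp750 (0.0701). Hyal1 differed by 0.75 in LWT and by -0.19 in LKO. Acsl5 probe 2, with changes of 0.38 in LWT and 0.75 in LKO, does not share this likeness. Nearest to Acsm3 were A1cf, a cofactor of apolipoprotein B mRNA editing (0.0444), Bbox1, the last enzyme of carnitine synthesis (0.0631), and Hmgb3 (0.08). Distances are in log2 units and describe likeness over 4 group means only.

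Genes that act before, beside or after the synthetases were described from lists, to set the members among their pathway. Of 14 genes of carnitine transport and beta-oxidation, 13 rose and 0 fell with CL316243 in LWT, with a median of 0.91, against 18.9% of all genes called higher. In LKO 4 rose and 3 fell (20.9% of all genes higher, 19.4% lower). The interaction was called, lower in LKO, for 12 of 14 (3.24% of all genes). The largest LWT increases in this list were those of Ehhadh, the peroxisomal bifunctional enzyme (3.98 in LWT, -0.80 in LKO), and Cpt1b, a carnitine palmitoyltransferase (3.13 and 0.70). Under vehicle 8 of the 14 were lower in LKO, where 0 of the 9 synthetases tested were called and 166 of all 21331 genes were lower. Under CL316243 14 of 14 were lower (8.17% of all genes). The lists were chosen with earlier results of these data known, and whether they differ from each other was not tested.

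Of 12 thioesterases and acyl-CoA or fatty acid binding proteins, which undo or carry the synthetases' product, 8 rose and 2 fell in LWT (median 0.38), where 18.9% of all genes rose and 19.4% fell. In LKO 1 rose and 5 fell (median -0.30), where 20.9% of all genes rose and 19.4% fell. The interaction was called, lower in LKO, for 6 of 12 (3.24% of all genes). Under vehicle 1 was higher and 1 lower in LKO (1.18% of all genes called). Under CL316243, 8 of 12 were lower in LKO and 0 higher, where 8.17% of all genes were lower. Acot2 and Acot1, thioesterases of mitochondria and cytosol, had the largest LWT increases (6.97 and 4.52), and in LKO they differed by 1.73 and 0.22, the last not called. Their sequences are close to those of other Acot genes, so their probes may share signal. Acbd4 and Acot13 fell in LWT (-0.51 and -0.38) and in LKO (-0.87 and -0.42).

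Of 11 genes of esterification, the other main use of acyl-CoA, 3 rose and 1 fell in LWT (median 0.29), and 1 rose and 3 fell in LKO (median -0.28). These shares were near those of all genes called, 38.3% and 40.3%. The interaction was called, lower in LKO, for 1 of 11 (3.24% of all genes). Under vehicle 2 of 11 were lower in LKO (1.18% of all genes called). Under CL316243, 7 of 11 were lower in LKO and 0 higher, where 8.17% of all genes were lower. Agpat9, a glycerol-3-phosphate acyltransferase now named Gpat3, rose with CL316243 in both genotypes (4.67 and 3.74). Dgat1 rose in LWT (0.42) and differed by 0.01 in LKO. Dgat2 fell in LWT (-0.39) and differed by -0.28 in LKO, not called. Of 14 other acyl-CoA synthetases, 10 passed the filter, 1 rose and 3 fell in LWT (median -0.26), and 0 rose and 2 fell in LKO (median -0.31), the first again near the share of all genes and the second below it. Slc27a2, a very-long-chain synthetase and fatty acid transporter, rose in LWT (0.38) and differed by 0.02 in LKO, with a called interaction of -0.35 (adjusted p = 0.033). Aacs, acetoacetyl-CoA synthetase, fell in both (-1.12 and -0.86), and Acss1, the mitochondrial acetyl-CoA synthetase, fell in LWT (-0.56). The 2 LKO calls of this list were Aacs and Slc27a4, the latter named after its value was seen, and both lay near the threshold. Their number was 0 without LKO vehicle replicate 6 and 1 without any of LWT vehicle replicates 2, 4, 5 and 6, LWT CL316243 replicates 1, 2, 4, 5 and 6, LKO vehicle replicates 1 and 2, and LKO CL316243 replicates 1, 3 and 5. The Slc27a2 interaction, the 1 call of this list there, was lost without any of LWT vehicle replicates 1, 2 and 3, LWT CL316243 replicates 1, 5 and 6, LKO vehicle replicates 1 and 6, and LKO CL316243 replicate 1. Between genotypes under vehicle 1 of the 10 was called, higher in LKO, where 1.18% of all genes were called. That call was lost under 6 of 12 processing alternatives. Under CL316243 1 was higher and 2 were lower in LKO, where 15.9% of all genes were called and 8.17% were lower.

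**Figure D4:**
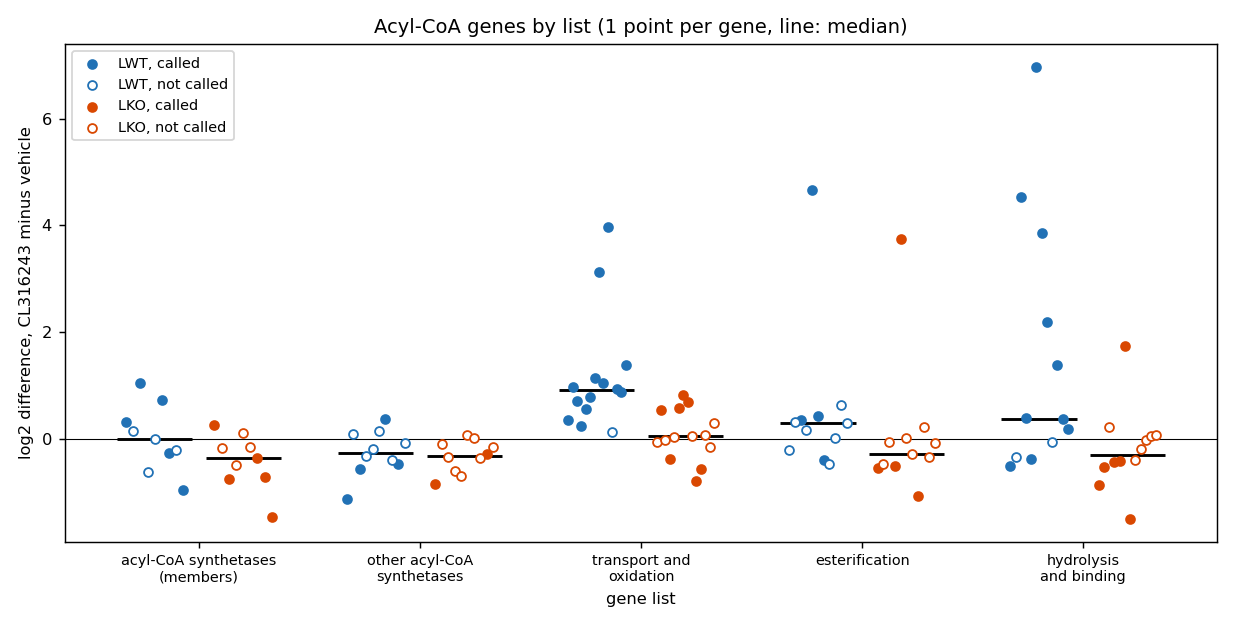
Log2 difference between CL316243 and vehicle (vertical axis) of each tested gene in 5 lists of acyl-CoA metabolism, in LWT (blue) and LKO (orange), with a line at each list's median. In LWT the oxidation genes lie above 0 with a median of 0.91, while the synthetases spread to both sides with a median of -0.0070.

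In whole liver, fewer cells of a type and less RNA per cell cannot be told apart, and markers of other cell types were read beside these results. Of 5 neutrophil markers 3 rose and 2 fell with CL316243 in LWT, and 3 rose in LKO. Their summed level (linear, relative to the 75th percentile) was 2.02 to 5.34 in LWT vehicle, 2.10 to 13.6 in LWT CL316243, 2.18 to 3.37 in LKO vehicle and 3.61 to 47.3 in LKO CL316243. Stellate cell markers had 2 risen and 1 fallen of 5 in LWT and 2 risen in LKO, with sums of 51.9 to 69.6 and 63.6 to 83.9 in LWT and of 47.1 to 68.1 and 65.4 to 81.6 in LKO, vehicle first. Kupffer cell markers had 0 of 5 called in any comparison. Endothelial markers had 1 risen and 1 fallen of 5 in LWT and 1 fallen in LKO. Of 4 cholangiocyte markers 1 rose in each genotype. Of 3 adipocyte markers tested 1, Cidea, rose in each, while Plin1 and Lep were called in neither (list median -0.057 in LWT and 0.18 in LKO). Adipoq was well above background on 6 of 24 arrays. Of 3 erythroid markers tested 0 were called in LWT and 1 fell in LKO, while Epb4.2 was well above background on 1 of 24 arrays. Hepatocyte marker sums were 1698 to 2004, 1797 to 2307, 1823 to 2198 and 1683 to 2339 in LWT vehicle, LWT CL316243, LKO vehicle and LKO CL316243, and overlapped. Between genotypes, 3 markers were called, and they are named for these calls. Alas2, the erythroid enzyme of heme synthesis, was higher in LKO under vehicle (0.41, adjusted p = 0.0215) and under CL316243 (0.35, adjusted p = 0.00974). Camp, a neutrophil granule peptide, was higher in LKO under CL316243 (0.40, adjusted p = 0.00168), with a called interaction of 0.42 (adjusted p = 0.0353). Cidea was lower in LKO under CL316243 (-2.07, adjusted p = 0.000296). The part of these markers in the synthetase results was not tested.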

How the data were processed

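Liver RNA of 24 mice was hybridised to Agilent single-colour arrays from 200 ng of RNA per mouse, per the labels' protocols. The authors' scanner files hold intensities per spot, background-subtracted on a linear scale; the file headers name Agilent Feature Extraction 10.10.1.1 as the authors' software. The authors also deposited a series table of log2 values, which was used as an alternative. Set against the scanner files, 99.3% of its values lay within 0.01 of the quantile-normalised log2 of the median signal, over 31367 probes. The submitters' processing notes name limma. 0 columns of the deposited tables belonged to no sample.

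Of 62976 spots per array, 59305 were gene spots of 56605 probes. Spots flagged by the scanner software as non-uniform or as population outliers were removed, each array's 75th percentile was subtracted from the log2 of the processed intensity, and spots of a probe were averaged. Kept probes were well above background on 4 or more of a group's 6 arrays, in 1 group or more, and had 3 or more values in every group (32037 probes), and the brightest kept probe represented its gene (21331 genes). limma 3.58.1 in R 4.3.3 fitted 1 mean per group to the 24 arrays with eBayes (2.17 prior and 20 residual df). P-values were adjusted by Benjamini-Hochberg within each of 5 comparisons, over genes or, for single probes, over all 56605 probes without the filter. The script was checked on simulated data. Nothing in the labels says how separate the mice were beyond 1 sample each, so p-values measure the spread between these samples. The number of arrays limits the precision: the median standard error of a difference was 0.13, and 0.19 for the interaction.

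The genes and lists were chosen with earlier results of these data known. All 10 synthetases and Ppara are named. From each other list of acyl-CoA genes the text names the 2 largest increases and 2 largest decreases among those called for CL316243 in LWT, and for each synthetase called in the interaction the 3 nearest genes; Acsm2, Acsm4, Cidea and other marker genes are named outside this rule. Alternatives were another background correction, normalization, starting table, filter, probe rule, block, variance model, set of samples, a fold threshold and leaving out each mouse. Replicate numbers were not taken as pairs in the main fit. Not every pair of same-numbered mice deviated together, which does not exclude that the numbers mark a block. Same-numbered mice deviated together more often than others, with correlations over 0.1 in 11 of 36 pairs against 20 of 180. The replicate number as a block was therefore kept as an alternative. In a fit with slide and row, slide was called for 49 genes and row for 0.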

Additional observations from a re-analysis of the deposited data

Results flagged for a closer look

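The response of 3 synthetases to CL316243 differed between the genotypes by the interaction test of limma, as log2 differences of -1.81 for Acsl1, -0.88 for Acsl5 and -0.52 for Acsm3, each lower in LKO, where 5.41% of all genes were called. The Acsl5 and Acsm3 calls depended on the probe or on single mice, as given with their values.

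In 5 of 40 groups of 6 mice, 10 genes in 4 groups each, 1 mouse stood apart from the other 5 by Dixon's criterion, which chance meets in about 1 group in 20. LKO vehicle replicate 6 had the highest Acsl1 log2 level of its group (7.15) and also the highest Acsl4 level (4.74); its array had the lowest 75th percentile of the 24 (397.4). LKO CL316243 replicate 1 had the highest Acsl5 level of its group (4.94). LWT vehicle replicate 2 had the lowest Acsm1 level of its group (4.43), and LKO vehicle replicate 4 the highest (4.89). Without LKO CL316243 replicate 1 the LKO difference of Acsl5 was called (-0.28, adjusted p = 0.0482). Left out singly, the other 3 mice changed no call of the gene they stood apart in.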

How the results depend on the processing

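Each of 9 genes in 5 comparisons was recomputed under 11 or 12 processing alternatives and without each of the 24 mice. Of 531 values under the processing alternatives 513 kept direction and side of the threshold. With the sign kept, 11 lost the call and 3 gained one, and 4 values changed sign. Of 1080 values with 1 mouse left out the numbers were 1051, 13, 5 and 11. The sign changes under the processing alternatives all came from the mean of all kept probes: Acsl4 in LWT (0.073), Acsl5 in LKO (0.30), Acsf2 in LKO (-0.066) and Acsm1 between genotypes under CL316243 (-0.0167). With its change of sign Acsl5 in LKO also gained a call, and Acsf2 in LKO also lost its call. Leaving out 1 mouse turned the sign only of values that were not called: over these fits Acsl4 in LWT ran from -0.11 to 0.10, the Acsl3 interaction from -0.038 to 0.34, and the genotype difference under CL316243 from -0.28 to 0.086 for Acsl3 and from -0.025 to 0.055 for Acsm1.

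With a change of at least 1.5-fold also asked for, 3 of the 9 synthetases were called in LWT, 3 in LKO, 2 in the interaction and 4 between genotypes under CL316243. Of all 21331 genes, 3801, 3885, 810 and 1627 were called in these comparisons, against 8180, 8596, 1153 and 3393 without the fold threshold. The counts of other lists fell as well: in LWT to 1 of the other synthetases, 1 of esterification and 5 of hydrolysis and binding, in LKO to 1, 2 and 3, with 3 of oxidation, in the interaction to 0 of the other synthetases and 0 of esterification, and between genotypes under vehicle to 4 of oxidation and 1 of esterification.

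The list of other synthetases, with few calls, changed most. Its LKO count was 0 with no filter on dim probes or with only the groups compared, and 0 to 3 with 1 mouse left out. Its interaction count was 0 with the series table or no filter, and 0 to 1 with 1 mouse left out. Its vehicle genotype count of 1 was 0 with the series table, no filter, the slide block, slide and row blocks, the replicate block or only the groups compared, and 0 to 1 with 1 mouse left out. Its count under CL316243 was 1 with no filter, slide and row blocks or only the groups compared, and 1 to 3 with 1 mouse left out. For esterification the interaction count of 1 was 2 with normexp background correction or the replicate block and 3 with the mean of all kept probes, and 1 to 3 with 1 mouse left out; its genotype count under CL316243 was 4 with no filter and 2 with only the groups compared, and 4 to 9 with 1 mouse left out. For hydrolysis and binding the vehicle genotype count was 1 to 4 with 1 mouse left out. Causes were not tested, beyond the fewer samples of some fits.

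With the replicate number of the labels as a block, 44 of 45 values of the synthetases kept direction and side of the threshold, and Acsm5 between genotypes under CL316243 was called (-0.45, adjusted p = 0.018). The replicate block moved the count of all genes called in LWT from 8180 to 8309, and 10 of 24 arrays correlated best with their own number. Deviations of same-numbered mice from their group means correlated at a median of 0.0549 (-0.183 to 0.424), over 0.1 in 11 of 36 pairs, against a median of -0.00817 and 20 of 180 pairs of different numbers. With no filter, 664 genes of 37074 were called in the interaction against 1153 of 21331. With only the groups compared, 2203 were called between genotypes under CL316243 against 3393. Signal over background limits Acsl6, which has no measured level in most mice.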
